A study of Mus musculus with 4 samples.

Results

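The genes described here are 31 mouse genes of cholesterol and fatty acid synthesis, together with their regulators and a few genes of sterol export and uptake. They were chosen by pathway and symbol, with earlier results of these data known, and all 31 were found among 21631 RefSeq protein-coding genes on chromosomes 1 to 19 and X. The measurement was chromatin immunoprecipitation and sequencing (ChIP-seq) of H3K27ac, the acetylated lysine 27 of histone H3, which marks promoters and enhancers in use. A peak was assigned to a gene when it overlapped the gene body extended by 5 kb on both sides, and was called shared when it had 1 base or more in common with a peak of the other culture's list, and list-only otherwise.

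The cells were neural stem cells cultured from female E14.5 mouse embryos that carried a deleted and a floxed allele of Smchd1, which encodes a chromatin protein known for its part in X inactivation. In the deleted culture the floxed allele had been removed by a retrovirus with Cre recombinase and a puromycin resistance gene; puromycin was given from 24 h and cells were collected on day 7. The control culture had been kept without the virus, so loss of Smchd1, transduction and drug selection cannot be told apart. Both cultures carried a 129 maternal X with a mutant Xist (named 129-KO in the genotype and deltaA in the protocol) and a Castaneus paternal X, and the strain is given as C57BL/6. Established lines had been split between the treatments, and each culture is numbered 1. There was 1 H3K27ac library and 1 whole-cell-extract input library for each culture, 4 samples in all, so there is no replicate error and no test between cultures. The labels conflict in places: the antibody is entered as one against H3K27me3, the control ChIP is fl/fl in its title and del/fl in its genotype, and the control input is given a del/del genotype.

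Mammalian cells build cholesterol from acetyl-CoA through the mevalonate pathway, then squalene, then a chain of sterol intermediates, while fatty acids are built from the same precursor by carboxylation, chain extension and desaturation. Both routes are switched on by the transcription factors SREBP1 and SREBP2, the products of Srebf1 and Srebf2. These are carried by SCAP to the Golgi for cleavage when sterols are low and are held back in the endoplasmic reticulum by INSIG proteins when sterols are high. Dividing neural progenitors need sterols and lipids for new membrane, and cells of the brain make their own cholesterol. The SREBPs bind a sterol response element, usually beside a CCAAT box bound by NF-Y or a GC box bound by Sp1. The liver X receptors act on sterol export and uptake through genes such as Abca1, Mylip and Apoe.

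After the authors' filtering, 54194233 ChIP tags and 77101643 input tags remained for deleted cells, and 42277672 ChIP tags and 80601280 input tags for control cells, a ChIP ratio of 1.28. The lists compared held 91557 deleted and 63613 control peaks. What part of the difference in peak numbers comes with this depth was not tested. In a bulk culture, fewer cells with the mark and less mark per cell cannot be told apart. All 8 neural stem cell markers had peaks in both lists within 5 kb of the gene body, and 6 of the 8 within 1 kb of a start, with a highest fold enrichment from 10.1 to 20.7 in deleted cells and from 9.04 to 22.4 in control cells. Within 5 kb of the body, both lists also had a peak at 2 of 5 neuron, 2 of 3 astrocyte, 1 of 3 oligodendrocyte, 2 of 3 microglia, 1 of 3 fibroblast and 1 of 2 endothelial markers. Within 1 kb of a start these counts were 1, 1, 0, 0, 1 and 0. The endothelial marker Pecam1 reached 7.33 in deleted and 9.28 in control cells, the second value inside the range of the stem cell markers, and the other markers of these types reached at most 6.04 in deleted and 5.45 in control cells. Among these markers, Dcx, Snap25, Tubb3, Cx3cr1, Col1a2 and Col3a1 had 0 peaks in either list.

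The sequences upstream of 6 members are given because their starts carry the main observations. Hmgcs1 holds an exact match to the sterol response element core that was searched, and Acat2 to its shorter form only. Cyp51, Insig1 and Srebf2 are the most enriched sterol enzyme and the most enriched regulators in deleted cells. Abca1 is the member with a peak in 1 list only. Only exact letters were searched, so other forms of a motif are not marked. Capitals mark the motifs searched on both strands, namely the sterol response element core TCACCCCAC and its shorter form CACCCCAC, which lies inside the core, the E-box CACGTG, the CCAAT box CCAAT, read ATTGG on the other strand, and the GC box GGGCGG, read CCGCCC on the other strand. The stretches are from RefSeq on GRCm38.p6, 5′ to 3′ on the gene's strand, and end 1 base before the start, except that Abca1 stops 94 bases before it, where the annotated gene body begins.
Hmgcs1, chr13:119690101-119690350, strand +: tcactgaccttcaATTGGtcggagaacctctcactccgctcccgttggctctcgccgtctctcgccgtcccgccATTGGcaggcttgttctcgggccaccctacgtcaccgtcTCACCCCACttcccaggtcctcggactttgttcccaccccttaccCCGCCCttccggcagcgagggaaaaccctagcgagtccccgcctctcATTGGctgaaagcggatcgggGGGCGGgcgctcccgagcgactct
Acat2, chr17:12960726-12960975, strand -: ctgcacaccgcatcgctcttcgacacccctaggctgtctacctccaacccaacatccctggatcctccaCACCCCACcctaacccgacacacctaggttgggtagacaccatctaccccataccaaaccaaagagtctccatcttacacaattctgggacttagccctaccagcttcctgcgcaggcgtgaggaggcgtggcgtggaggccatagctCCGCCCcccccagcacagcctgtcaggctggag
Cyp51, chr5:4104698-4104947, strand -: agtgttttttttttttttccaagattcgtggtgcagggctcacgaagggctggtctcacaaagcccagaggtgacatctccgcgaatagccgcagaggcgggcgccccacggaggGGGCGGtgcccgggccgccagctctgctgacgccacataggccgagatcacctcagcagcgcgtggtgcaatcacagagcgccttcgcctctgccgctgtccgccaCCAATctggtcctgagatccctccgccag
Insig1, chr5:28071162-28071411, strand +: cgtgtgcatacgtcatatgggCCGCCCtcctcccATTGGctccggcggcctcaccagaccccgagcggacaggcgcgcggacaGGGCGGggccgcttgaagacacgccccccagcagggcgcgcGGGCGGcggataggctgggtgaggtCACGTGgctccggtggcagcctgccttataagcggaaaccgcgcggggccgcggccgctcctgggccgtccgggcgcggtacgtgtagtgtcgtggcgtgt
Srebf2, chr15:82147019-82147268, strand +: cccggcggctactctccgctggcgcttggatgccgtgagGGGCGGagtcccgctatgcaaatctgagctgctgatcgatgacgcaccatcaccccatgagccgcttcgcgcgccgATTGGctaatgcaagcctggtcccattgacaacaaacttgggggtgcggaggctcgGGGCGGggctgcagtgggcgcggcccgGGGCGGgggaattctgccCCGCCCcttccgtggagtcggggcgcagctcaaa
Abca1, chr4:53159989-53160145, strand -: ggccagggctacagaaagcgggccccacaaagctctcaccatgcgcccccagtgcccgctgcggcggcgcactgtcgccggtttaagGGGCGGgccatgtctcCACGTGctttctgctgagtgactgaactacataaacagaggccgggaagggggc

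Nearly all of these genes were acetylated in both cultures. Of the 31 members, 30 had at least 1 peak in both cultures, against 61.4% of all 21631 genes. Abca1 alone was marked in deleted cells without a control peak, against 5.71% of genes, 0 members were marked in control cells alone, against 0.915%, and 0 had no peak at all, against 32.0%. The members' median highest fold enrichment, the ratio of the strongest summit to the local background of the same library's input, was 7.72 over 31 members in deleted cells and 8.37 over 30 members in control cells. The medians of all genes with a peak were 7.39 for deleted and 7.06 for control cells, and 16 and 22 members lay above them. The background was over 2% above the lowest of its list at only 28 of 210 deleted and 17 of 169 control member peaks. At the other member peaks the fold enrichment follows the pileup at the summit over a nearly constant background. Fold enrichment is not scaled between libraries, so values of the 2 lists are given side by side and not as a change.

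**Figure D1:**
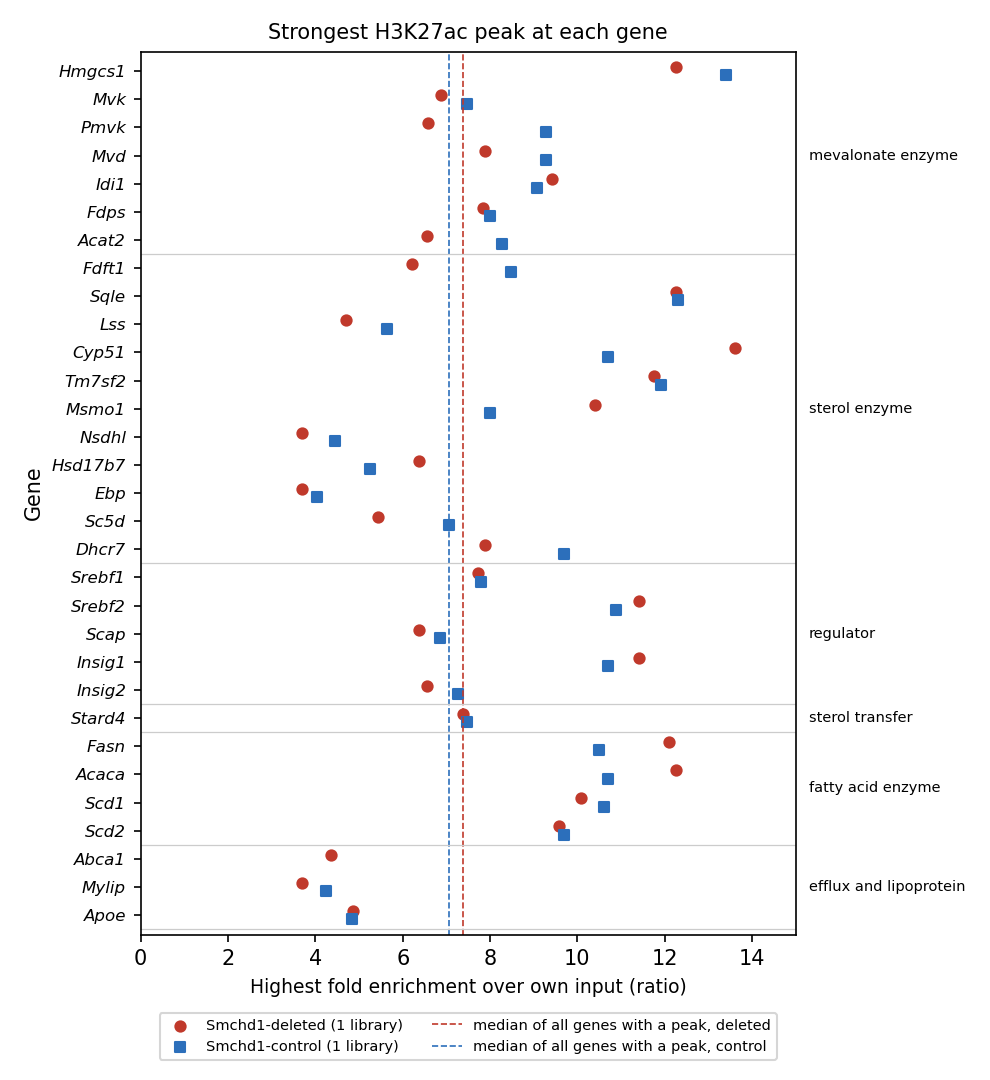
Highest fold enrichment over the library's own input (horizontal axis, ratio) at each of the 31 genes (vertical axis, grouped by role), with red circles for the Smchd1-deleted list, blue squares for the Smchd1-control list and dashed lines for the medians of all genes with a peak. The fatty acid enzymes sit between 9.57 and 12.3 in deleted and between 9.68 and 10.7 in control cells, while Abca1, Mylip and Apoe stay below 5 and Abca1 has no control value.

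The 7 mevalonate enzymes were all acetylated in both cultures, at 43 deleted and 34 control peaks. Hmgcs1, which makes HMG-CoA at the head of the pathway, was the strongest, with a highest fold enrichment of 12.3 in deleted and 13.4 in control cells, where it led all members. Its start lay in a gap between peaks, which ran from 480 bases upstream to 104 bases downstream in the deleted list and from 459 upstream to 154 downstream in the control list. The match to the sterol response element in its sequence, at positions -137 to -129 from the start, lies inside that gap in both. Idi1, the isomerase of isopentenyl diphosphate, reached 9.43 in deleted and 9.08 in control cells, and Mvd, which makes isopentenyl diphosphate by decarboxylation, 7.89 and 9.28. Mvd had 2 peaks in each list, on either side of its start, and all 4 were shared.

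The other mevalonate enzymes had a highest fold enrichment from 6.55 to 7.83 in deleted and from 7.46 to 9.28 in control cells. Mvk, mevalonate kinase, had a highest fold enrichment of 6.88 in deleted and 7.46 in control cells, and its peaks at the start also lay within 1 kb of the start of Mmab, so the 2 genes cannot be separated there. Fdps, farnesyl diphosphate synthase, reached 7.83 in deleted and 8.0 in control cells. Acat2, a thiolase that joins acetyl-CoA units, reached 6.55 in deleted and 8.27 in control cells, and its CACCCCAC at -181 to -174 lay under a deleted peak that ran from -594 to -109, while the control peak there ended at -216. Pmvk, phosphomevalonate kinase, has 2 annotated starts. The outer one, at position 89454541 of chromosome 3, had no peak within 1 kb in either list, and the inner one, at 89459571, lay under a peak of 6.57 in deleted and 9.28 in control cells.

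The 11 sterol enzymes ranged most widely, from 3.69 to 13.6 in deleted and from 4.04 to 12.3 in control cells. Cyp51, the sterol demethylase, had the strongest peak of all members in the deleted list, at 13.6, against 10.7 in control cells, and its 4 peaks in each list were all shared. Sqle, the squalene epoxidase and a rate-limiting enzyme (chr15:59315092-59331193), reached 12.3 in both lists. Msmo1, a methylsterol oxidase, reached 10.4 in deleted and 8.0 in control cells, each at a peak that began at its start. Around Tm7sf2, a sterol reductase, the strongest peaks (11.8 in deleted and 11.9 in control cells) lay at the starts of the neighbours Znhit2 in deleted cells and Fau and Mrpl49 in control cells, and the peaks within 1 kb of its own start reached only 6.04 and 6.66.

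Dhcr7, a reductase that yields cholesterol (chr7:143823167-143848410), had a highest fold enrichment of 7.89 in deleted and 9.68 in control cells. The deleted maximum was just upstream of its outer start, within 1 kb of the start of Nadsyn1, and the control maximum just upstream of its innermost start, where the deleted list also had a peak of 7.39. Fdft1, squalene synthase, reached 6.21 in deleted and 8.47 in control cells. Hsd17b7, a sterol ketoreductase, reached 6.38 and 5.25, and its 3 peaks in each list were all shared, as were the 2 of Sc5d, a sterol desaturase (5.43 in deleted and 7.06 in control cells). The strongest Hsd17b7 peak of each list also lay within 1 kb of the start of 3110045C21Rik. Lss, which closes the sterol rings, reached 4.70 in deleted and 5.65 in control cells. The X-linked pair was lowest of the enzymes: Nsdhl, a sterol dehydrogenase, had 1 deleted peak (3.69) and 3 control peaks (highest 4.44), and Ebp, a sterol isomerase, had 2 deleted peaks (highest 3.69) and 1 control peak (4.04). The peaks of Nsdhl also lay within 1 kb of the start of Cetn2.

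The regulators Srebf1, Scap and Srebf2 carried the most peaks of the members. Srebf1 had 20 in deleted and 14 in control cells, Scap 20 and 18, and Srebf2 18 and 13, while Insig2 had 2 and 3. Srebf1, Scap and Srebf2 measure 25.1, 51.7 and 58.1 kb, against a median of 17.7 kb over the members. Neither peak numbers nor covered lengths were scaled to gene length. Srebf2 was enriched up to 11.4 in deleted and 10.9 in control cells just downstream of its start, and peaks covered 11.3 kb of its window in deleted and 8.74 kb in control cells, as much as in the top 2.15% and 1.80% of all genes. Srebf1 (chr11:60199084-60224186) reached 7.72 in deleted and 7.80 in control cells next to the innermost of its 3 annotated starts. At the middle start it reached 5.71 and 6.25, and at the outermost 4.03 and 3.80, so the order of its starts was the same in both lists. Insig1, itself a well known target of the SREBPs, reached 11.4 in deleted and 10.7 in control cells, with 6 and 5 peaks that were all shared. Insig2 reached only 6.55 in deleted and 7.26 in control cells, at its inner starts, while its outermost start had no peak within 1 kb in either list. Scap reached 6.38 in deleted and 6.86 in control cells. Stard4, which moves cholesterol between membranes, reached 7.39 in deleted and 7.46 in control cells.

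The 4 fatty acid enzymes all lay above the medians of all genes with a peak. Fasn, the fatty acid synthase (chr11:120805958-120825166), was the most broadly acetylated of them, with a highest fold enrichment of 12.1 in deleted and 10.5 in control cells and peaks covering 11001 and 9111 bases. Its longest peak, upstream of the start and partly over the body of Ccdc57, measured 4715 bases in deleted and 3546 in control cells. Scd1 and Scd2, the stearoyl-CoA desaturases, lie as neighbours on chromosome 19. Scd1 reached 10.1 in deleted and 10.6 in control cells. Scd2, a form prominent in brain, reached 9.57 and 9.68, with 11 peaks in each list, of which 0 deleted and 1 control were list-only. Acaca, acetyl-CoA carboxylase, reached 12.3 in deleted and 10.7 in control cells at a peak inside the annotated gene body, from 84179864 to 84181024 of chromosome 11 in the deleted and from 84180007 to 84181219 in the control list. The only start in the promoter table for Acaca, at position 84195438, had no peak within 1 kb in either list, which made Acaca the single member with no peak at a start in either. This gene is known to use several promoters.

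The 3 genes of sterol export and uptake were at the low end. Mylip, the ligase that degrades lipoprotein receptors, had 1 shared peak just downstream of its start, at 3.69 in deleted and 4.24 in control cells. Apoe, the main apolipoprotein of the brain (chr7:19696244-19701310), reached 4.87 in deleted and 4.84 in control cells, both outside its body. Within 1 kb of its starts it reached 4.03 and 4.04. Abca1, the cholesterol exporter, had 1 peak, in deleted cells only, at chromosome 4 from 53159440 to 53159831, which begins 64 bases downstream of its start and has a fold enrichment of 4.37. The nearest control peak was 146775 bases away. Of all deleted peaks within 5% of that fold enrichment, at any place, 34.8% (95% interval 33.7 to 35.9) overlapped no control peak. Of the deleted peaks at starts of all protein-coding genes, at any strength, 20.3% were list-only. Peaks at starts with the strength of this one were not counted apart.

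Most peaks near a start were shared and many elsewhere in the windows were not, at the members as at all genes. For 25 members with an annotated start in the promoter table the window was 1 kb on both sides of any start, and for the other 6 (Fdps, Fdft1, Sqle, Stard4, Scd1 and Scd2) 1 kb around either gene end. Both lists had such a peak at 29 of 31 members, against 50.4% of all genes. Abca1 had it in deleted cells alone, against 5.50%, and 0 members had it in control cells alone, against 0.892%. Within these windows 7 of 67 deleted peaks, or 10.4% (4.30 to 20.3), and 1 of 67 control peaks, or 1.49% (0.0378 to 8.04), were list-only. Elsewhere in the gene bodies 45 of 89 deleted peaks (50.6%) and 22 of 62 control peaks (35.5%) were list-only, and in the flanks 26 of 54 (48.1%) and 13 of 40 (32.5%). Over the peaks of all protein-coding genes, 20.3% of deleted and 5.36% of control peaks at starts were list-only, 58.6% and 31.4% elsewhere in bodies, and 47.0% and 21.4% in flanks. Nothing particular to the members is read from these shares. The list-only peaks were weak, with a median fold enrichment of 3.19 in deleted and 3.53 in control cells, against 4.68 and 4.84 for the shared ones. None of the 41 deleted and 51 control peaks at a fold enrichment of 6 or above was list-only. Over all peaks at that strength the percentages were 1.14% and 0.111%.

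**Figure D2:**
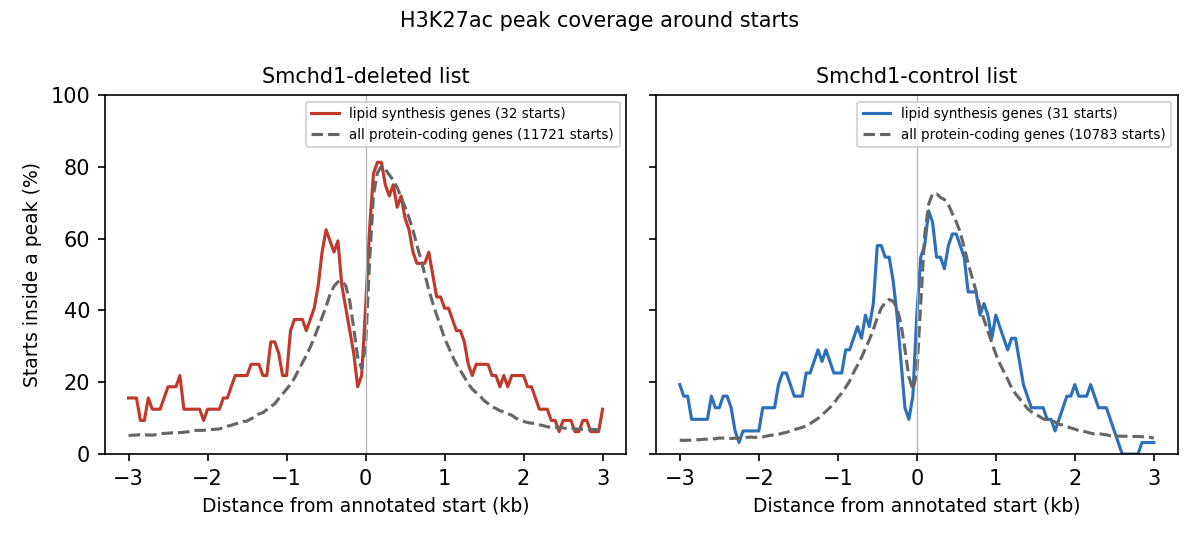
Percentage of annotated starts that lie inside an H3K27ac peak (vertical axis) at each distance from the start (horizontal axis, kb, upstream negative), for the lipid genes (solid) and all protein-coding genes (dashed), in the Smchd1-deleted list (left, red) and the Smchd1-control list (right, blue), among starts with a peak within 1 kb. Coverage of the lipid genes dips to 18.8% in deleted and 9.68% in control cells 100 bases upstream and is highest downstream of the start in both lists.

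Fewer starts were covered 100 bases upstream than 500 bases upstream or 200 bases downstream, as at Hmgcs1. Among starts of the members with a peak within 1 kb (32 starts of 24 genes in deleted and 31 of 23 in control cells), 18.8% in deleted and 9.68% in control cells were covered 100 bases upstream. At 200 bases downstream the coverage was 81.2% in deleted and 64.5% in control cells, and at 500 bases upstream 62.5% and 58.1%. All annotated starts had the same shape, with 27% and 21.5% at 100 bases upstream, 80.2% and 72.5% at 200 bases downstream and 41.1% and 37.9% at 500 bases upstream. Starts of 1 gene can share peaks, so these points are not independent. Of the 6 printed stretches, those of Hmgcs1, Srebf2 and Abca1 held 0 bases under a peak in either list, and that of Insig1 lay under a peak for 5 bases in deleted and 17 in control cells. Peaks reached further into the other stretches, over 143 bases of Acat2 in deleted and 58 in control cells, and over 103 and 98 bases of Cyp51.

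The promoter windows in the table, 300 bases long and ending 50 bases after the start, were searched for the motifs above. CCAAT or ATTGG was found in at least 1 window of 20 of 25 members (80%), against 42.7% of 17274 genes, and the GC box in 21 (84%), against 49.8%. The E-box was found in 6 members (24%), namely Hsd17b7, Abca1, Insig1, Dhcr7, Sc5d and Scap, against 9.02% of genes. CACCCCAC was found in Hmgcs1 and Acat2 (8%), against 3.37%, and the longer core in Hmgcs1 alone (4%), against 0.625%. These matches are letters in a window and not measured binding. Other forms of the sterol response element were not searched, so a member without a match may still hold one.

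The deleted list had more peaks than the control list over the members, as over the genome. The members had 210 deleted and 169 control peaks, a ratio of 1.24 (95% interval 1.01 to 1.53), an interval that holds both the 1.44 of all peaks and the 1.40 of peaks within 5 kb of a protein-coding gene. The covered length was 114 kb in deleted and 94.8 kb in control cells, and the mean fold enrichment of the member peaks was 4.68 and 5.30, against 4.30 and 4.74 over all peaks. More deleted than control peaks were counted at 18 members, against 40.7% of all genes, more control than deleted peaks at 7, against 9.56%, and equal numbers at 6. Among genes with a peak in both lists, 17 of 30 members had more deleted peaks, against 56.9%, and 7 had more control peaks, against 14.1%. The direction of the ratio turned under stricter settings: it was 0.917 (0.733 to 1.15) in lists cut to equal length, 0.958 (0.733 to 1.25) when -log10 q had to reach 5 and 0.846 (0.580 to 1.23) when the fold enrichment had to. Over all peaks these settings gave 1, 1.29 and 1.04.

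**Figure D3:**
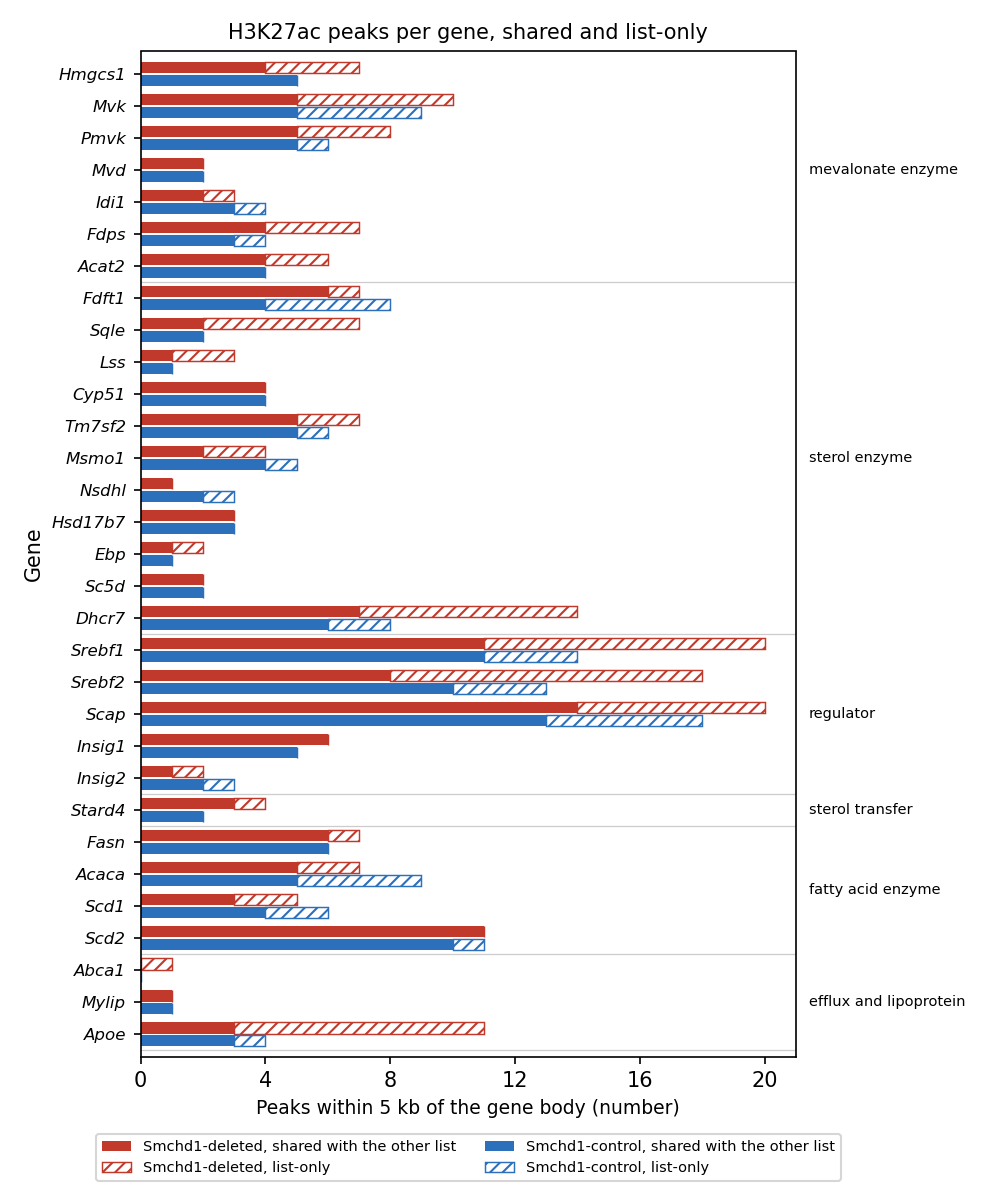
Number of H3K27ac peaks within 5 kb of each gene body (horizontal axis) for the 31 genes (vertical axis, grouped by role), with red bars for the Smchd1-deleted and blue bars for the Smchd1-control list, solid where shared and hatched where list-only. Srebf1, Srebf2, Dhcr7, Sqle and Apoe carry the longest hatched red parts relative to the blue, and the fatty acid enzymes have 30 deleted and 32 control peaks in all.

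List-only peaks made up 78 of the 210 deleted member peaks, or 37.1% (30.6 to 44.1), and 36 of the 169 control ones, or 21.3% (15.4 to 28.3). Among all peaks within 5 kb of a protein-coding gene they made up 48.4% of deleted and 22.7% of control peaks. The order of the members' counts turned in lists of equal length, with 35 deleted and 43 control list-only peaks. It also turned at -log10 q of 5 or more, with 22 and 25. At a fold enrichment of 5 or more the counts were 10 and 17. Under these 3 settings sharing was judged again between the cut lists. A list-only peak there can thus overlap a weaker peak that the cut removed. In the uncut lists the strongest list-only member peak had a fold enrichment of 4.87 in deleted and 4.64 in control cells. For the 3 settings in the order given, the member percentages were 22.6% deleted and 25.4% control, 19.5% and 21.2%, and 18.2% and 26.2%. Over all peaks of each list they were 38.3% deleted and 32.6% control, 41.3% and 19.2%, and 26.9% and 19.04%. The deleted percentage thus stayed the higher over all peaks, while the order turned over the members. No interval was computed for these percentages. Peaks within 5 kb of a protein-coding gene were not counted apart under these settings. Nothing particular to the members is read from this turn. At least 1 deleted list-only peak was found at 23 members, against 50% of all genes, and at least 1 control list-only peak at 17, against 28.4%. Among genes marked in both cultures these counts were 22 of 30, against 72.1%, and 17 of 30, against 44.8%. By role, the deleted percentage was 39.5% for mevalonate enzymes, 37.0% for sterol enzymes, 39.4% for regulators, 16.7% for fatty acid enzymes and 69.2% for the 3 export and uptake genes. The control percentages for the same groups were 20.6%, 20.9%, 22.6%, 21.9% and 20%. These groups hold 13 to 66 deleted and 5 to 53 control peaks each, and the differences between groups were not tested.

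A surplus of at least 4 deleted over control list-only peaks, a limit chosen after the values were seen, was found at 5 of 31 members, against 11.0% of all genes. All genes include the 32.0% with no peak in either list, while every member had a peak. Nothing particular to the members is read from this count. Srebf2 had 10 deleted and 3 control list-only peaks, Srebf1 9 and 3, Apoe 8 and 1, Dhcr7 7 and 2, and Sqle 5 and 0. At Srebf2, 1 of the 10 deleted ones lay upstream of the start, at a fold enrichment of 4.03, and the rest lay along the body at 3.36 or less. At Apoe, 4 of the 11 deleted peaks overlapped its own body, 4 the body of Tomm40 and 3 lay in neither, against 2, 1 and 1 of the 4 control peaks. Of the 5 deleted list-only peaks of Sqle, 3 lay over the neighbouring gene Washc5. Members with 0 list-only peaks in either list were Mvd, Cyp51, Hsd17b7, Sc5d, Insig1 and Mylip.

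**Figure D4:**
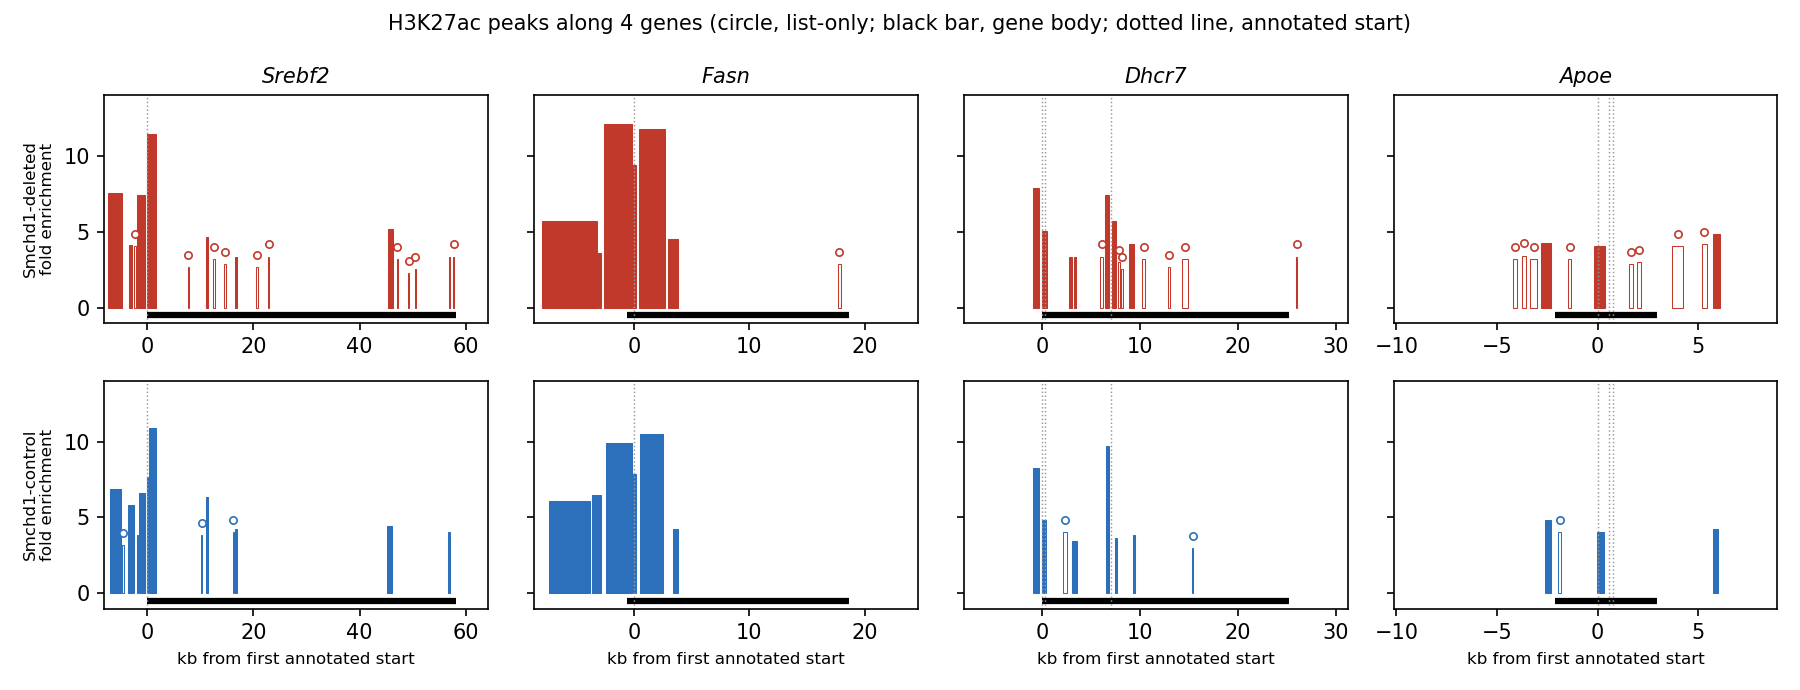
Peaks along Srebf2, Fasn, Dhcr7 and Apoe, as bars over the span of each peak with the summit's fold enrichment as height (vertical axis), by distance from the first annotated start (horizontal axis, kb, upstream negative), for the Smchd1-deleted list (top, red) and the Smchd1-control list (bottom, blue). Open bars with a circle are list-only, black lines are gene bodies and dotted lines annotated starts; tall peaks recur in both rows and the circled ones are mostly low bars.

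Among 38 other genes of lipid synthesis, sterol handling and their regulation, 34 were marked in both cultures, 0 in deleted cells alone, 1 in control cells alone and 3 in neither. The ratio of their 276 deleted to their 191 control peaks was 1.45 (1.20 to 1.75), and 46.7% of the deleted and 22.5% of the control ones were list-only. Among the most enriched in deleted cells were Fads1 (14.8), a fatty acid desaturase, its relative Fads2 (11.6), Elovl6 (11.9), a fatty acid elongase, and Acly (11.2), which makes cytosolic acetyl-CoA. Among those in control cells were Lbr (14.1), a nuclear envelope protein with sterol reductase activity, Fads1 (13.7), Fads2 (12.7), and Elovl5 and Elovl6 (11.5 each). Acacb, the carboxylase isoform of mitochondria, had 1 peak, in control cells (3.23). Mlxipl, Idi2 and Ch25h had none in either list.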

How the data were processed

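H3K27ac ChIP-seq of 1 Smchd1-deleted and 1 Smchd1-control culture was used, each with its own input, with groups taken from the sample titles. The submitters' processing notes name Bowtie 0.12.9, MACS2 2.1.0.20140616 and the mm10 build. Per the file headers, narrow peaks were called against the matching input with down-sampling and a q-value limit of 0.05. Each deposited peak carries its pileup signal, its p-value and q-value as −log10, and its fold enrichment, a ratio of summit to local background, all written by the authors' peak caller.

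Peaks on chromosomes 1 to 19 and X were counted with Python 3.11.15, pandas 2.3.3 and scipy 1.17.1 over RefSeq genes of GRCm38.p6, the assembly of mm10. Intervals are exact Clopper-Pearson 95% intervals that cover counting error only, and nearby peaks share a source. No p-value is given, since each culture has 1 library. Where the promoter table gave no start, either gene end was used, in members and in all genes alike. The counting was tested on simulated lists. All members are named. Of the other lipid genes, the 5 most enriched in each list, with ties, and those marked in 1 list or in neither are named, except for an item that is not reported here. The members and gene lists were chosen with earlier results of these data known. Other windows, stricter peak limits, lists of equal length and a larger overlap were tried, and 3 alternatives were added after seeing the data.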

Additional observations from a re-analysis of the deposited data

How the results depend on the processing

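Depth limits every count of weak peaks, and a peak missing from a list was not detected at that depth. No paired analysis was possible because each culture has 1 ChIP library. Of the 31 members, 30 were marked in both cultures under every other window and peak limit tried except a fold enrichment of 5 or more, which left 25. At that limit 0 members kept a peak in the deleted list alone and 1 (Lss) kept one in the control list alone. The start peak of Lss was shared in the uncut lists, at 4.70 in deleted and 5.65 in control cells. The ratio of deleted to control member peaks at that limit was 0.846. That ratio was 0.958 at -log10 q of 5 or more and 0.917 in lists of equal length. It was 1.24 without peaks at another gene's start, 1.21 without Apoe and 1.23 without Srebf1, Srebf2 and Scap, all 3 chosen after seeing the data. Deleted list-only peaks, 78 as reported, numbered 51 over unextended gene bodies, 10 at a fold enrichment of 5 or more, 22 at -log10 q of 5 or more and 35 in lists of equal length. Control list-only peaks, 36 as reported, numbered 22 over unextended bodies, 17 at a fold enrichment of 5 or more, 25 at -log10 q of 5 or more and 43 in lists of equal length. Under the last 3 settings sharing was judged again between the cut lists. The control list then had more list-only member peaks than the deleted list. Over all peaks the list-only percentage stayed higher in the deleted list under these settings. No interval was computed for these counts, and nothing particular to the members is read from them. The cause of these shifts was not tested.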
